A study of Mus musculus with 33 samples.

Results

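The 10 genes described here act in growth arrest and apoptosis: Trp53, Mdm2, Cdkn1a, Ccng1, Cdkn1b, Bax, Bbc3, Bmf, Pmaip1 and Apaf1. They were chosen by name, for the processes ascribed to Zac1, a zinc finger transcription factor encoded by the imprinted gene Plagl1. All 10 were listed among the 27825 genes of each tongue table and the 25965 genes of the sorted cell table. The study compared mice that express Zac1 biallelically (Zac1o knockout mice, called biallelic here) with wild type mice. Whole tongues were taken at embryonic stage E13.5, at birth (P0) and at postnatal stage P20, with 3 biallelic and 3 wild type libraries at each stage. Ribcages of E18.5 embryos were digested overnight with trypsin and collagenase and sorted for cells carrying both Cd24a and Cd200, the gate given for prehypertrophic chondrocytes, from 6 biallelic and 5 wild type animals. The labels describe no restriction of the knockout to a tissue, and no strain, sex or litter is stated.

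The protein p53, encoded by Trp53, is a transcription factor that is stabilised by DNA damage and other stresses and binds DNA as a tetramer, at pairs of half-sites. Its targets include Cdkn1a, whose product p21 blocks cyclin-dependent kinases. They also include genes of the BCL-2 family that promote permeabilisation of mitochondria, among them Bax, Bbc3 (Puma) and Pmaip1 (Noxa). Mdm2 is both a p53 target and the ubiquitin ligase that degrades p53. Cytochrome c released from mitochondria then assembles with Apaf1 into the apoptosome, which activates caspases. In developing muscle, Cdkn1a is also known to rise as myoblasts leave the cell cycle, where it can be induced without p53.

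The start regions of these genes are shown because p53 binds DNA at pairs of half-sites. A single half-site is not read as a binding site here. RefSeq promoter windows (assembly GRCm38.p6, 250 bases before to 50 bases after a transcription start) were found for 9 of the 10 genes, 14 windows in all; Pmaip1 was the one without. The standard degenerate p53 half-site, whose reverse complement has the same consensus, was present in 6 of these 14 windows, against 8.36% of all 32851 windows in the table. Paired CATG cores with 6 bases between them, the spacing of 2 abutting half-sites, occurred in the upstream window of Cdkn1a and in no other window of the 9 genes, against 0.712% of all windows. That Cdkn1a window (chr17:29090729-29091028, plus strand) held half-sites starting at positions -73 and -51 from the start, the second overlapping the paired cores. Capitals mark the half-sites and the paired cores:
Cdkn1a: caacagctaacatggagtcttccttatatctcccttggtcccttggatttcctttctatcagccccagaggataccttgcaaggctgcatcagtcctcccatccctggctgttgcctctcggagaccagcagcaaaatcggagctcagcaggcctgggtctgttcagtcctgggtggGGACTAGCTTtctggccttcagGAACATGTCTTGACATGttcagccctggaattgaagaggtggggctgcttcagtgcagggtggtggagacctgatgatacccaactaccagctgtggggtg
Stretches of 60 bases around the single half-site of the other 5 genes with one are given 5′ to 3′ along each gene, again with the half-site in capitals, for Ccng1 (chr11:40755437-40755496, minus strand), Mdm2 (chr10:117710910-117710969, minus strand), Trp53 (chr11:69580259-69580318, plus strand), Bax (chr7:45467065-45467124, minus strand) and Bmf (chr2:118544766-118544825, minus strand):
Ccng1: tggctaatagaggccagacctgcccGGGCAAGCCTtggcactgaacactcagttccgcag
Mdm2: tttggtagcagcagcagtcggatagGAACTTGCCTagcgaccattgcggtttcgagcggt
Trp53: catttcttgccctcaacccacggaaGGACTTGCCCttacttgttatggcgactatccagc
Bax: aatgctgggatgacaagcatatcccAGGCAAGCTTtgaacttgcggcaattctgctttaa
Bmf: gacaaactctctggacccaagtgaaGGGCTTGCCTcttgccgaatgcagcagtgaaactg
These letters describe the windows and were not measured for binding. No half-site lay in the windows of Cdkn1b, Bbc3 and Apaf1, in the downstream Cdkn1a window (chr17:29093519-29093818) or in the other windows of Bmf.

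Values are RPM, reads scaled by the authors to a million-read library, and were deposited as log2 values. Tongue libraries held 36832717 to 92249098 reads and sorted cell libraries 2938462 to 15689559. Tests were made with limma on log2 RPM across every gene that reached 1 RPM in 3 or more of 6 tongue libraries, or in 5 or more of 11 sorted cell animals, and "called" means a Benjamini-Hochberg adjusted p under 0.05. On principal component 1, E13.5 biallelic replicate 3 (47.5) and P20 biallelic replicate 3 (-39.8) stood apart from the other libraries of their tables, and P0 biallelic replicate 1 (27.96) and wild type replicate 2 (29.0) from the other 4 at P0. So did wild type animals 7, 8 and 9 in the sorted cells (64.3, 79.8 and 89.8, against -52.2 to 17.2 in the other 8 animals). Plagl1 was higher in every biallelic than in every wild type library of each of the 4 tables. Its log2 fold change was 1.20, 1.03 and 1.30 in the tongue at the 3 stages and 1.74 in the sorted cells, and of these the P0 difference was called (limma adjusted p = 0.0469). That call was lost under several alternatives and when any 1 library was left out, while its value stayed between 0.99 and 1.10.

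The sorted cells were checked against marker genes before their values were used. Col2a1, the main cartilage collagen, was at 245 to 760 RPM in biallelic and 154 to 433 RPM in wild type animals. The 14 chondrocyte genes summed to 395 to 988 RPM in biallelic and 231 to 613 RPM in wild type animals. The gate gene Cd24a was at 41.2 to 55.6 RPM in biallelic and 28.7 to 50.8 RPM in wild type animals. Cd200 was at 4.78 to 21.3 RPM in biallelic and 5.79 to 19.0 RPM in wild type animals. Col9a1, Acan, Sox9, Comp and Hapln1 had reads in every animal, and Matn1, Matn3 and Cnmd had 0 reads in 2, 5 and 1 of 11. The prehypertrophic genes Ihh and Pth1r had 0 reads in 9 and 7 of 11 animals. Col10a1, a gene of hypertrophic chondrocytes, reached at most 0.64 RPM. All 16 leukocyte genes were listed and summed to 3312 to 4500 RPM in biallelic and 3765 to 5275 RPM in wild type animals, among them Ptprc (336 to 482 RPM in biallelic and 234 to 543 RPM in wild type animals) and the macrophage receptor gene Csf1r (550 to 861 RPM in biallelic and 291 to 598 RPM in wild type animals). In wild type animals 7, 8 and 9 the neutrophil gene S100a9 was at 329 to 631 RPM, against 1.34 to 33.8 RPM in the other 8 animals. These libraries are called the sorted cells below, and the part of leukocyte RNA in the values of the 10 genes was not tested.

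Between E13.5 and P0 Cdkn1a and Ccng1 rose in the tongue of both genotypes, while Trp53 itself, Cdkn1b, Bax, Bmf and Apaf1 fell. In the biallelic tongue 3 of the 9 tested genes rose and 6 fell, where 38.5% of all 12243 tested genes rose and 38.9% fell. In the wild type tongue 2 rose and 5 fell, where 36.3% rose and 41.5% fell. Most of all genes changed in this step, and the members' counts are read against those shares. Total RNA was prepared with another kit at E13.5 (AllPrep) than at P0 and P20 (TRIsure), so stage and kit cannot be told apart in the first step. In whole tongue, fewer cells of a type and less RNA per cell cannot be told apart either.

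**Figure D1:**
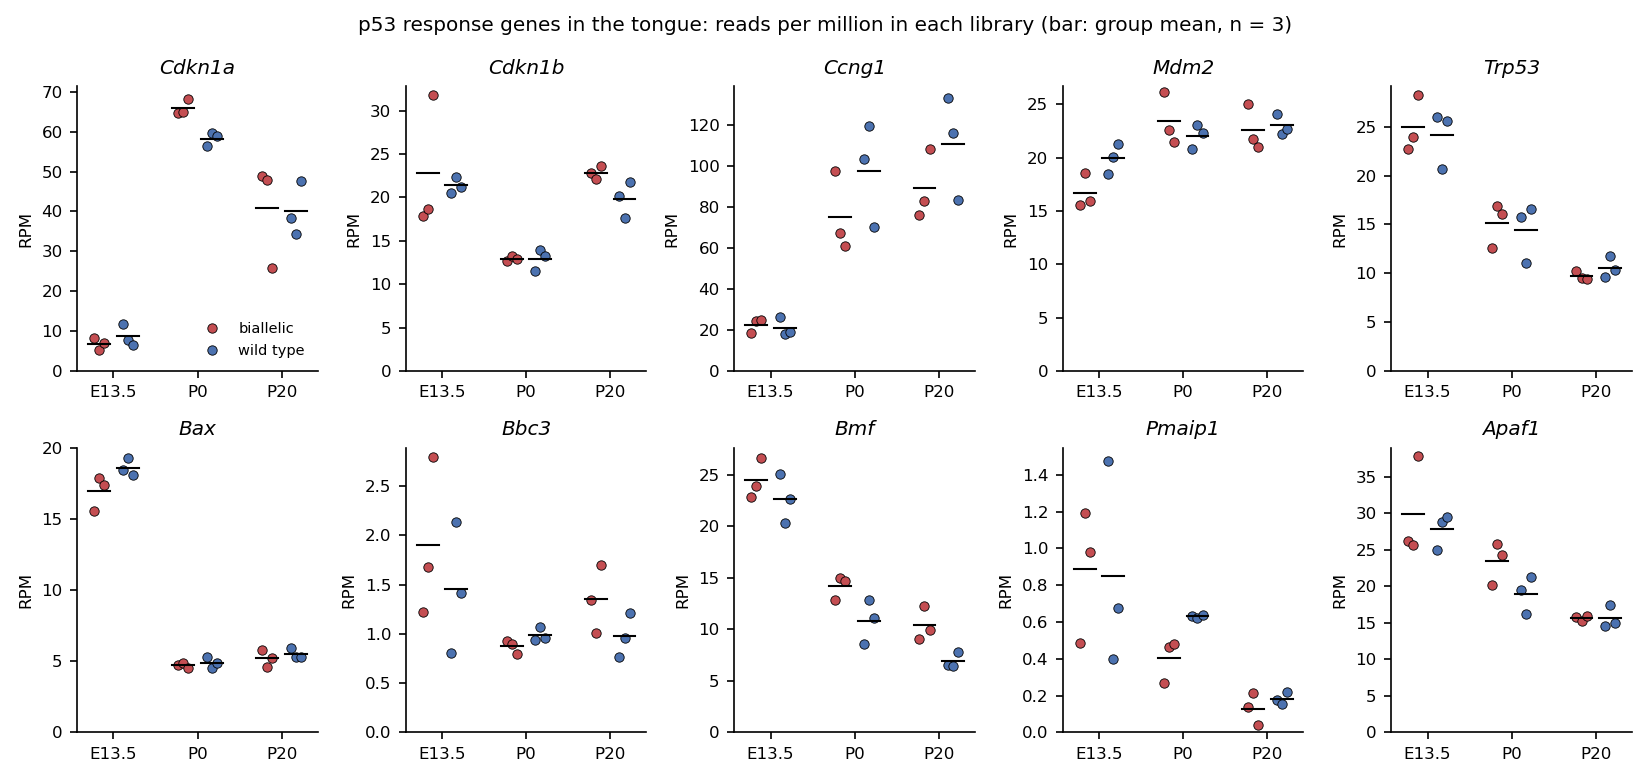
RPM (vertical axes, each starting at 0) of the 10 genes in each tongue library at E13.5, P0 and P20, biallelic libraries left of wild type libraries and a bar at each group mean (n = 3). Cdkn1a and Ccng1 lie higher at P0 than at E13.5 in all libraries, Bax, Bmf and Trp53 lie lower, and biallelic and wild type points overlap in most panels.

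Trp53 (chromosome 11, 69580359 to 69591873, plus strand, GRCm38) was higher at E13.5 than later. It was at 22.8, 23.9 and 28.2 RPM in biallelic and 26.0, 20.7 and 25.6 RPM in wild type E13.5 tongues. At P0 the values were 12.5, 16.9 and 16.0 RPM in biallelic and 15.8, 11.1 and 16.6 RPM in wild type tongues, and at P20 they were 10.2, 9.51 and 9.44 RPM in biallelic and 9.66, 11.7 and 10.3 RPM in wild type tongues. All 6 P0 libraries lay below all 6 E13.5 libraries, and the genotypes overlapped at each stage. Between E13.5 and P0 Trp53 fell by 0.73 on the log2 scale in the biallelic (SE 0.16, limma adjusted p = 0.000519) and by 0.75 in the wild type tongue (SE 0.16, limma adjusted p = 0.000385). Between P0 and P20 it fell again, by 0.63 in the biallelic (limma adjusted p = 0.00400) and by 0.44 in the wild type tongue (limma adjusted p = 0.0331). The wild type call for the second step was lost without any of P0 replicates 1 and 3 and P20 replicates 1 and 3, with values of -0.36, -0.33, -0.37 and -0.42.

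Mdm2 (chromosome 10, 117688888 to 117710758, minus strand), the p53-degrading ligase, varied between 15.5 and 26.2 RPM over the 18 tongue libraries. Its values were 15.5, 18.54 and 15.9 RPM in biallelic and 18.51, 20.1 and 21.3 RPM in wild type tongues at E13.5. At P0 they were 26.2, 22.6 and 21.4 RPM in biallelic and 20.9, 23.0 and 22.3 RPM in wild type tongues, and at P20 25.1, 21.8 and 21.0 RPM in biallelic and 24.1, 22.2 and 22.7 RPM in wild type tongues. The E13.5 libraries held the low end, and the genotypes overlapped at each stage. Mdm2 rose between E13.5 and P0 in the biallelic tongue (log2 fold change 0.49, SE 0.11, limma adjusted p = 0.000568). In the wild type tongue the change was 0.14 (SE 0.11, limma adjusted p = 0.228), and it was called, at 0.30, with median centring and with scaling to the listed genes. The difference between the genotypes in this step was 0.35 (SE 0.15, 95% interval on the fold 1.02 to 1.59), the smallest p of the 9 genes for that contrast (unadjusted p = 0.0376 from limma), and it was not called (limma adjusted p = 0.886).

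Cdkn1a (chromosome 17, 29090979 to 29100722, plus strand) showed the largest change between stages of the 9 tested genes. At E13.5 it was at 8.13, 5.29 and 7.02 RPM in biallelic and 11.9, 7.82 and 6.41 RPM in wild type tongues. At P0 it reached 64.6, 65.0 and 68.3 RPM in biallelic and 56.4, 59.6 and 58.8 RPM in wild type tongues. These P0 groups did not overlap, and every P0 library lay above every E13.5 and every P20 library. P20 values were 48.8, 47.8 and 25.9 RPM in biallelic and 38.3, 34.2 and 47.6 RPM in wild type tongues, with biallelic replicate 3 the lowest. Between E13.5 and P0 Cdkn1a rose 9.83-fold in the biallelic tongue (95% interval 6.93 to 13.9) and 6.93-fold in the wild type tongue (95% interval 4.89 to 9.83), both called (limma adjusted p = 2.36e-09 for biallelic and 1.68e-08 for wild type). The difference in this step between the genotypes was not called (limma adjusted p = 0.894). Between P0 and P20 Cdkn1a fell by 0.75 on the log2 scale in the biallelic tongue (SE 0.24, limma adjusted p = 0.0167), a call that was lost, at -0.45, without P20 biallelic replicate 3. In the wild type tongue the change was -0.55 (SE 0.24, limma adjusted p = 0.0665), and it was called with 4 other settings, at -0.54 to -0.77, and without E13.5 wild type replicate 1 or P20 biallelic replicate 3, at -0.55 in both. AC167363.2, annotated on the opposite strand, overlaps Cdkn1a, and with the strand setting of the counting not stated, reads of the 2 cannot be told apart.

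Muscle and cell cycle genes moved over the same interval. The 8 muscle genes summed to 504 to 571 RPM in biallelic and 355 to 624 RPM in wild type tongues at E13.5, and at P0 to 23484 to 24909 RPM in biallelic and 23202 to 28578 RPM in wild type tongues. Of these 8 genes 6 rose in both genotypes, where 38.5% of all genes rose in the biallelic and 36.3% in the wild type tongue. Myod1 and Myog, which encode myogenic factors, fell (Myod1 by 1.36 in the biallelic and 1.67 in the wild type tongue on the log2 scale, Myog by 0.81 in the biallelic and 1.34 in the wild type tongue). All 16 proliferation genes fell between E13.5 and P0 in both genotypes, where 38.9% of all genes fell in the biallelic and 41.5% in the wild type tongue. Their median log2 change was -2.94 in the biallelic and -3.01 in the wild type tongue, beside -0.01 and -0.10 over all genes. The part of the muscle and proliferation genes in the change of Cdkn1a was not tested.

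Ccng1 (chromosome 11, 40748552 to 40755311, minus strand), which encodes cyclin G1, a p53-induced partner of a phosphatase that acts on Mdm2, rose with Cdkn1a at birth. At E13.5 it was at 18.48, 24.4 and 24.9 RPM in biallelic and 26.4, 18.2 and 18.8 RPM in wild type tongues. At P0 it was at 97.3, 67.1 and 60.9 RPM in biallelic and 103, 119 and 70.1 RPM in wild type tongues, and at P20 at 76.0, 83.0 and 108 RPM in biallelic and 133, 116 and 83.1 RPM in wild type tongues. The genotypes overlapped at each stage and all 12 later libraries lay above all 6 E13.5 libraries. The rise between E13.5 and P0 was 3.28-fold in the biallelic (95% interval 2.33 to 4.64, limma adjusted p = 4.69e-06) and 4.58-fold in the wild type tongue (95% interval 3.25 to 6.48, limma adjusted p = 2.60e-07). Ccng1 was still high at P20, with a log2 change after P0 of 0.26 in the biallelic and 0.19 in the wild type tongue, neither called (limma adjusted p = 0.379 for biallelic and 0.534 for wild type).

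Cdkn1b (chromosome 6, 134920401 to 134925513, plus strand) encodes p27, a cyclin-dependent kinase inhibitor regulated largely outside the p53 pathway, and its course ran opposite to that of Cdkn1a. It was at 17.8, 18.7 and 31.8 RPM in biallelic and 20.5, 22.4 and 21.2 RPM in wild type tongues at E13.5. At P0 it was at 12.6, 13.2 and 12.9 RPM in biallelic and 11.5, 13.96 and 13.2 RPM in wild type tongues, below every E13.5 library. P20 values were 22.8, 22.2 and 23.6 RPM in biallelic and 20.2, 17.6 and 21.7 RPM in wild type tongues, above every P0 library, and at P20 the genotypes did not overlap. Cdkn1b fell by 0.77 on the log2 scale in the biallelic (limma adjusted p = 0.000459) and by 0.73 in the wild type tongue (limma adjusted p = 0.000686) between E13.5 and P0. It then rose by 0.82 in the biallelic (limma adjusted p = 0.000752) and by 0.62 in the wild type tongue (limma adjusted p = 0.00592), and the wild type call was lost with median centring, at 0.40, and with scaling to the listed genes, at 0.44. The P20 difference between the genotypes was 0.21 (SE 0.10, unadjusted p = 0.0813 from limma, adjusted p = 1).

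**Figure D2:**
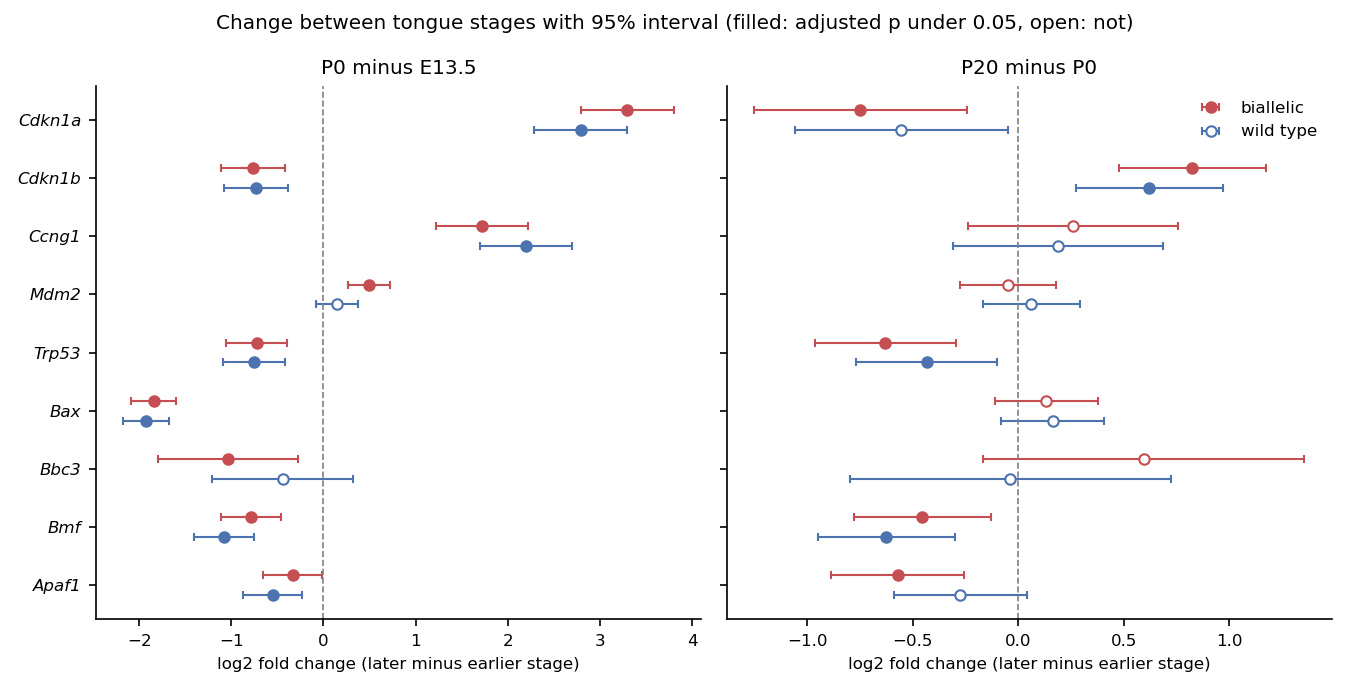
Log2 fold change of the 9 tested genes between stages (P0 minus E13.5 and P20 minus P0), for biallelic and wild type tongues, with 95% intervals from the limma fit of 18 libraries and filled points for called changes. Cdkn1a and Ccng1 lie above 0 and Bax lowest in the first step, and the intervals of the genotypes overlap for each gene.

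Bax (chromosome 7, 45461695 to 45466898, minus strand), the pore-forming BCL-2 family member, showed the largest fall among the 9 tested genes. It was at 15.6, 17.9 and 17.4 RPM in biallelic and 18.4, 19.3 and 18.1 RPM in wild type tongues at E13.5, where the genotypes did not overlap. At P0 it was at 4.76, 4.88 and 4.55 RPM in biallelic and 5.29, 4.54 and 4.89 RPM in wild type tongues, and at P20 at 5.82, 4.59 and 5.21 RPM in biallelic and 5.91, 5.27 and 5.29 RPM in wild type tongues. The later libraries of both genotypes overlapped and lay below all E13.5 libraries. The fall was 1.84 on the log2 scale in the biallelic (SE 0.12, limma adjusted p = 4.70e-10) and 1.93 in the wild type tongue (SE 0.12, limma adjusted p = 2.84e-10). The E13.5 difference between the genotypes was -0.14 (SE 0.13, limma adjusted p = 0.992). Gm45808, annotated on the same strand, overlaps Bax, so reads in the shared stretch cannot be assigned to one of the 2 genes.

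Bmf (chromosome 2, 118528757 to 118549687, minus strand) encodes a BH3-only protein that is released from the cytoskeleton and neutralises anti-apoptotic BCL-2 proteins. At E13.5 it was at 22.8, 23.9 and 26.6 RPM in biallelic and 25.1, 20.3 and 22.6 RPM in wild type tongues. At P0 it was at 12.8, 15.0 and 14.7 RPM in biallelic and 8.55, 12.9 and 11.1 RPM in wild type tongues. At P20 it was at 9.02, 12.3 and 9.93 RPM in biallelic and 6.54, 6.47 and 7.85 RPM in wild type tongues. The genotypes overlapped at E13.5 and at P0, where a single wild type library reached into the biallelic range, and did not overlap at P20. Bmf fell between E13.5 and P0 by 0.79 on the log2 scale in the biallelic (limma adjusted p = 0.000192) and by 1.08 in the wild type tongue (limma adjusted p = 7.12e-06). It fell again after P0, by 0.46 in the biallelic (limma adjusted p = 0.0227) and by 0.63 in the wild type tongue (limma adjusted p = 0.00350). The biallelic call after P0 was lost without P0 biallelic replicate 2 (-0.41) or 3 (-0.43) and without P20 biallelic replicate 1 (-0.36) or 3 (-0.43).

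Of the tested genes, Bmf had the smallest p for the genotype at P0, at P20 and averaged over the stages. Its log2 fold change, biallelic over wild type, was 0.11 at E13.5 (SE 0.14), 0.40 at P0 (SE 0.16, unadjusted p = 0.0392 from limma) and 0.58 at P20 (SE 0.14, unadjusted p = 0.00519 from limma). Without P0 wild type replicate 1 the P0 value was 0.24. Averaged over the 3 stages, Bmf was 1.29-fold higher in the biallelic tongue (95% interval 1.13 to 1.47), with an unadjusted p of 0.000799 that ranked 15 of 12243 genes. None of these differences was called, with limma adjusted p of 0.992, 1, 1 and 0.652. The averaged value lay between 0.31 and 0.41 over all alternatives and was called in none of them. Bmf was among the genes known to be of interest from earlier results of these data. The averaged contrast had itself been added in earlier work after its results were seen. The averaged interval, p and rank of Bmf are therefore a description.

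Bbc3 and Pmaip1, the BH3-only genes most closely tied to p53, were at low levels in the tongue. Bbc3 was at 1.22, 1.68 and 2.79 RPM in biallelic and 0.803, 2.14 and 1.42 RPM in wild type tongues at E13.5. Its P0 values were 0.931, 0.898 and 0.798 RPM in biallelic and 0.941, 1.07 and 0.954 RPM in wild type tongues, and its P20 values 1.35, 1.01 and 1.70 RPM in biallelic and 0.763, 0.961 and 1.21 RPM in wild type tongues. The stages overlapped. The fall of Bbc3 between E13.5 and P0 in the biallelic tongue (-1.04, SE 0.36, limma adjusted p = 0.0150) was lost without E13.5 biallelic replicate 3, at -0.72. In the wild type tongue the change was -0.44 (limma adjusted p = 0.267), and it was called, at -0.82, without E13.5 wild type replicate 1.

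Pmaip1 did not pass the filter on low values in any tongue fit and was not tested there. It was at 0.485, 1.19 and 0.979 RPM in biallelic and 1.48, 0.401 and 0.676 RPM in wild type tongues at E13.5. At P0 it was at 0.269, 0.464 and 0.479 RPM in biallelic and 0.633, 0.622 and 0.640 RPM in wild type tongues, and at P20 at 0.140, 0.212 and 0.0378 RPM in biallelic and 0.174, 0.155 and 0.220 RPM in wild type tongues. These values rest on 2 to 59 reads a library, and all 6 P20 libraries lay below all others. At P0 the biallelic libraries of both Bbc3 and Pmaip1 lay below the wild type libraries, without a test.

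Apaf1 (chromosome 10, 90989311 to 91082770, minus strand), the scaffold of the apoptosome, was lower at P20 than at E13.5. It was at 26.2, 25.7 and 37.8 RPM in biallelic and 24.99, 28.8 and 29.6 RPM in wild type tongues at E13.5. At P0 it was at 20.2, 25.8 and 24.2 RPM in biallelic and 19.6, 16.2 and 21.2 RPM in wild type tongues, and at P20 at 15.7, 15.3 and 16.0 RPM in biallelic and 14.5, 17.4 and 15.0 RPM in wild type tongues. All P20 libraries lay below all E13.5 libraries, and the genotypes overlapped at each stage. The fall between E13.5 and P0 was 0.55 on the log2 scale in the wild type tongue (limma adjusted p = 0.00289). In the biallelic tongue the change was -0.34 (SE 0.15, limma adjusted p = 0.0495), a call that was lost under 4 other settings, at -0.34 to -0.21, and in 12 of the 18 fits that left out 1 library, over a range of -0.43 to -0.15. After P0 the biallelic tongue fell by 0.57 (limma adjusted p = 0.00505), and the wild type change was -0.27 (limma adjusted p = 0.141), called with median centring (-0.49) and with scaling to the listed genes (-0.46).

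Fewer of the genes were called after birth. Between P0 and P20, 1 of the 9 tested genes rose and 4 fell in the biallelic tongue, where 30.1% of all genes rose and 17.4% fell. In the wild type tongue 1 rose and 2 fell, where 32.1% rose and 14.5% fell. Without P20 biallelic replicate 3, 3 of the 9 genes were called in the biallelic tongue. The median log2 change of all genes was 0.17 in the biallelic and 0.20 in the wild type tongue in this step, and the uncalled changes of Bax in both genotypes and of Mdm2 and Ccng1 in wild type changed sign under median centring.

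Between the genotypes none of the 10 genes was called in any table by limma. At E13.5, 0 of 9 tested genes were called, beside 0% of 11869 genes. At P0 the count was 0 of 8, beside 0.016% of 12489 genes, at P20 0 of 9, beside 0% of 12693 genes, and in the sorted cells 0 of 10, beside 0% of 11127 genes. Averaged over the tongue stages it was 0 of 9, beside 0.0245% of 12243 genes, and the genotype difference changed between stages in 0 of 9 genes for both steps, beside 0% of all genes. At an unadjusted p under 0.05 in limma the count was 0 of 9 at E13.5, beside 3.25% of all genes, 1 of 8 at P0 (Bmf), beside 3.3%, 1 of 9 at P20 (Bmf), beside 2.25%, and 0 of 10 in the sorted cells, beside 11.7%. It was 1 of 9 for the average (Bmf), beside 2.66%, 1 of 9 for the genotype difference in the first step (Mdm2), beside 5.58%, and 0 of 9 in the second, beside 1.42%. A count of 1 among 8 or 9 genes is the smallest above 0 and is not read as a result about the members. Limma-voom on the recovered reads also called 0 members, and none was called in any of 142 alternative fits.

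In the tongue, log2 fold changes between the genotypes of the tested members ranged from -0.33 to 0.41 at E13.5, from -0.38 to 0.40 at P0 and from -0.30 to 0.58 at P20. Their medians were 0.05, 0.08 and -0.02, beside -0.06, 0.04 and -0.02 over all tested genes. With 3 libraries a group some intervals were wide, as for Bbc3 at E13.5 (95% interval on the fold 0.654 to 2.71). Cdkn1a had log2 fold changes of -0.33 at E13.5 (SE 0.25), 0.18 at P0 (SE 0.08) and -0.02 at P20 (SE 0.26), and averaged -0.05 (SE 0.14, 95% interval on the fold 0.787 to 1.18). Groups that did not overlap were found for Bax at E13.5 (1 of 9 tested genes, beside 10.1% of all genes), Cdkn1a at P0 (1 of 8, beside 8.9%, and 3 of 10 with the untested Bbc3 and Pmaip1, which were lower in biallelic tongues), Cdkn1b and Bmf at P20 (2 of 9, beside 6.89%) and no member in the sorted cells (0 of 10, beside 0.872%).

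**Figure D3:**
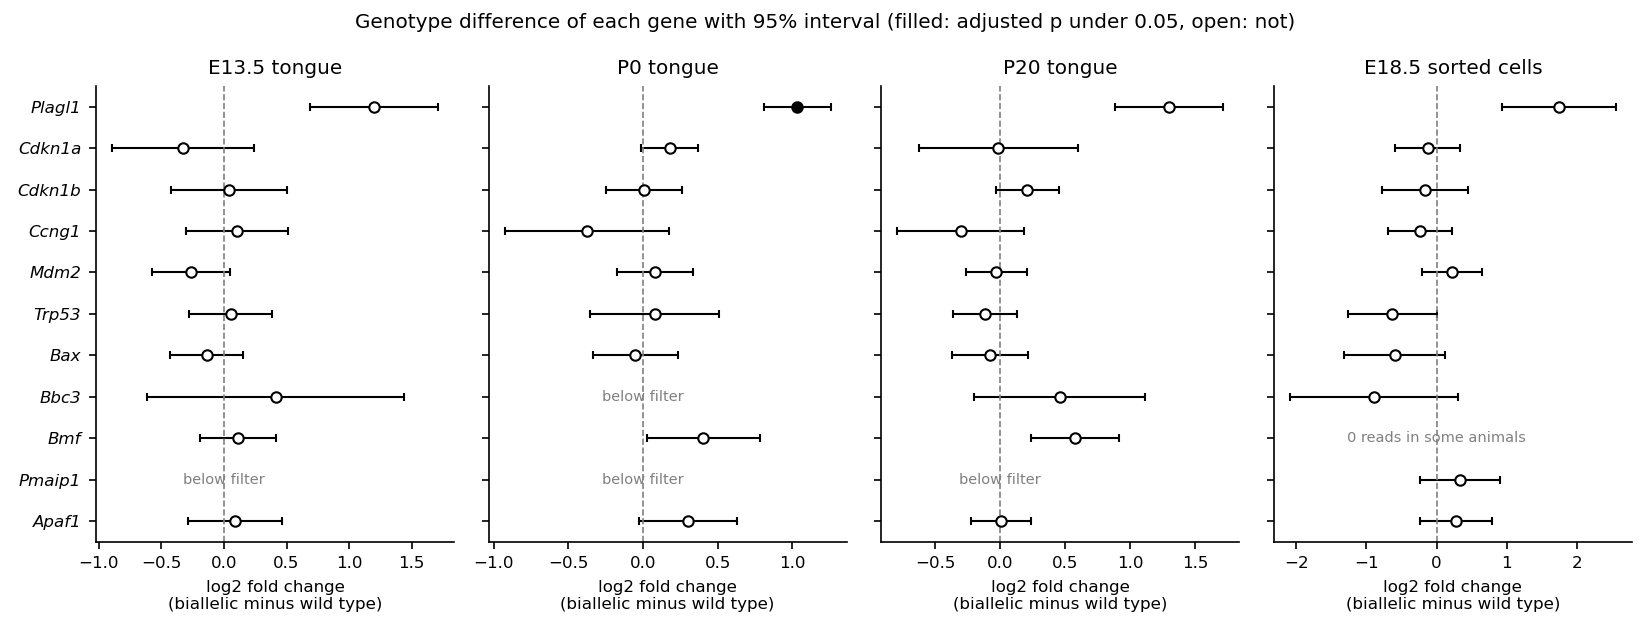
Log2 fold change, biallelic over wild type, of each tested gene and of Plagl1 in the 3 tongue stages and the E18.5 sorted cells, with 95% intervals from limma and a filled point where the difference was called; Bmf has no point in the sorted cells. The tongue values of the tested members stay between -0.38 and 0.58, while Plagl1 lies at 1.03 or above in all 4.

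In the sorted cells Cdkn1a, Mdm2 and Pmaip1 stood at the top of the 10 genes. By RPM per kilobase of exon, the other p53 targets Bax, Ccng1 and Bbc3 took places 4, 5 and 9 in both genotypes. The 12 genes of a stress and dissociation list, immediate early genes such as Fos and Jun among them, summed to 2413 to 5545 RPM in biallelic and 2426 to 4587 RPM in wild type animals, and to 49.5 to 188 RPM in biallelic and 51.8 to 130 RPM in wild type tongues over the 3 stages, and their part was not tested. Per kilobase of exon, Cdkn1a averaged 129 ± 24.7 RPM in biallelic and 145 ± 41.4 RPM in wild type animals (SD, n = 6 biallelic and 5 wild type). Mdm2 averaged 90.5 ± 28.7 RPM in biallelic and 75.2 ± 7.73 RPM in wild type animals, and Pmaip1 39.1 ± 20.6 RPM in biallelic and 28.3 ± 3.43 RPM in wild type animals. Among the first 4 genes in this order, which Bax completed, neighbours overlapped apart from Pmaip1 and Bax in the biallelic and Mdm2 and Pmaip1 in the wild type animals. In P0 tongue the order was led by Ccng1, at 21.4 ± 5.54 RPM per kilobase in the biallelic and 27.8 ± 7.16 in the wild type libraries, and Cdkn1a, at 18.6 ± 0.573 in biallelic and 16.4 ± 0.466 in wild type tongues (SD over 3 libraries). These 2 genes overlapped in the biallelic and did not overlap in the wild type tongues. The other 8 genes had group means below 5 RPM per kilobase there, with Pmaip1 last, at 0.148 ± 0.0429 in the biallelic and 0.231 ± 0.00331 in the wild type libraries. Tissue and library method (overnight digestion, sorting and polyA amplification against whole-tissue total RNA) cannot be told apart in this contrast, which was not tested.

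Cdkn1a had a lowest, median and highest value of 344, 448 and 604 RPM in biallelic and 275, 546 and 663 RPM in wild type animals. Mdm2 was at 292, 411 and 714 RPM in biallelic and 346, 378 and 441 RPM in wild type animals, and Pmaip1 at 62.9, 82.3 and 211 RPM in biallelic and 69.8, 73.5 and 93.4 RPM in wild type animals. The groups overlapped for all 10 genes, and biallelic animal 5 held the highest value of Mdm2 and Pmaip1. That animal also had the highest sums of the biallelic animals for the proliferation genes (347 RPM) and the stress genes (5545 RPM). Trp53 had the smallest p of the 10 genes: it was at 10.4, 12.5 and 28.3 RPM in biallelic and 13.3, 24.0 and 30.4 RPM in wild type animals (log2 fold change -0.63, SE 0.29, unadjusted p = 0.0502 from limma, adjusted p = 0.429). Bax was at 17.5, 24.6 and 32.4 RPM in biallelic and 15.7, 39.7 and 70.5 RPM in wild type animals (-0.60, SE 0.34), and Bbc3 at 1.02, 2.19 and 4.47 RPM in biallelic and 1.36, 5.87 and 7.77 RPM in wild type animals (-0.89, SE 0.56). For these 3 genes, and also for Cdkn1a and Cdkn1b, the high wild type values were those of animals 7, 8 and 9. Beside their neutrophil genes, these animals had 16 proliferation genes summing to 306, 278 and 452 RPM, against 143 and 120 RPM in wild type animals 10 and 11, and 12 stress genes summing to 4587, 4281 and 3752 RPM, against 2584 and 2426 RPM. Ptprc was at 234 to 288 RPM and Csf1r at 291 to 448 RPM in them, against 336 to 543 RPM and 550 to 861 RPM in the other 8 animals. The leukocyte genes did not all go this way. Tyrobp was at 307 to 399 RPM in animals 7, 8 and 9, against 159 to 317 RPM in the other 8. C1qa was at 72.8 to 161 RPM against 41.2 to 128 RPM, and Laptm5 at 439 to 506 RPM against 378 to 613 RPM. In animals 7, 8 and 9 Cdkn1a was at 546 to 663 RPM, against 275 to 494 RPM in wild type animals 10 and 11. Cdkn1b was at 26.1 to 34.6 RPM in them, against 11.2 to 16.5 RPM in animals 10 and 11. Apaf1 went the other way, at 35.5 to 71.8 RPM against 84.6 to 94.9 RPM. The part of the proliferation, stress and leukocyte genes in the values of Trp53, Bax, Bbc3, Cdkn1a, Cdkn1b and Apaf1 was not tested.

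Without wild type animals 7, 8 and 9, the log2 fold change was -0.20 for Trp53, 0.26 for Bax and 0.32 for Bbc3, and Cdkn1a, at -0.13 with all animals, was at 0.29. Cdkn1b, at -0.17 with all animals, was at 0.48, and Apaf1, at 0.28 with all animals, was at -0.23, while Mdm2 was at 0.22 with and 0.29 without them, Pmaip1 at 0.34 with and 0.23 without them, and Ccng1 at -0.24 with and -0.39 without them. Plagl1 was at 1.74 with and 1.17 without them. Without biallelic animal 5 alone, Mdm2 was at 0.079, Pmaip1 at 0.11 and Trp53 at -0.83. Bmf had at most 58 reads in the biallelic and 38 reads in the wild type animals, and 0 reads in 2 of the 5 wild type animals, so no fold is given. None of the 10 genes was called with or without these animals.

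**Figure D4:**
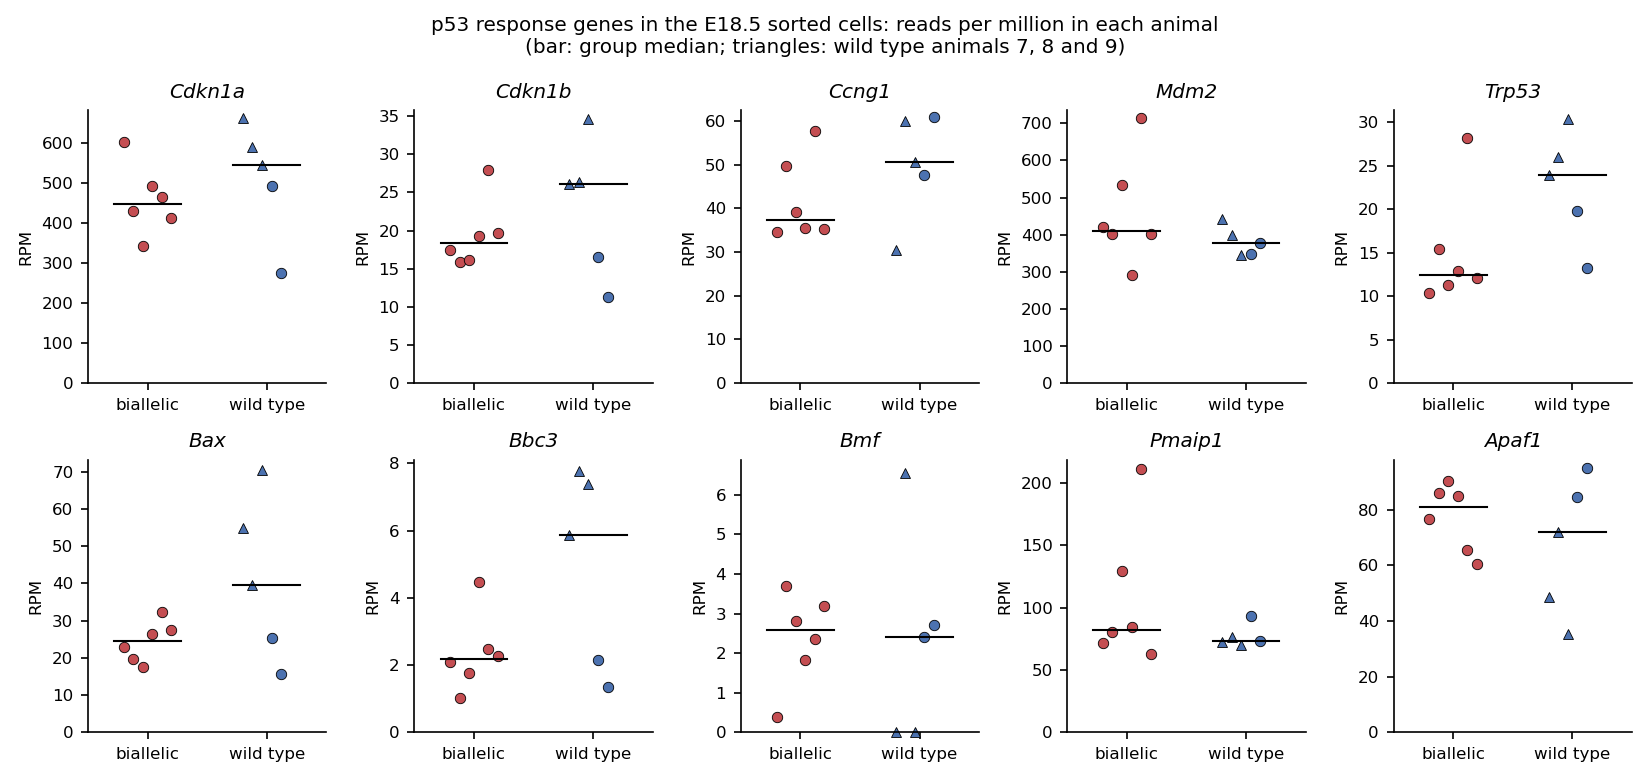
RPM (vertical axes, each starting at 0) of the 10 genes in each E18.5 sorted cell animal, 6 biallelic left of 5 wild type, with a bar at each group median and triangles for wild type animals 7, 8 and 9. Biallelic and wild type animals overlap for each gene. The triangles hold the high wild type values of Trp53, Bax, Bbc3, Cdkn1a and Cdkn1b and the low ones of Apaf1.

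The wider pathway was read through lists of other genes. Of 37 other p53 targets, 31 were tested across the tongue stages. Between E13.5 and P0, 9 rose and 11 fell in the biallelic tongue, where 38.5% of all genes rose and 38.9% fell. In the wild type tongue 10 rose and 12 fell, where 36.3% of all genes rose and 41.5% fell. The median log2 change was -0.19 in the biallelic tongue, beside -0.01 over all genes. It was -0.07 in the wild type tongue, beside -0.10 over all genes. The risers included Steap3, a ferrireductase gene (3.94 in the biallelic and 4.66 in the wild type tongue), and Ak1, an adenylate kinase gene of muscle (3.32 in the biallelic and 3.70 in the wild type tongue), and the mitotic gene Psrc1 fell (-2.97 in the biallelic and -3.52 in the wild type tongue). Between P0 and P20, 14 rose and 2 fell in the biallelic tongue, where 30.1% of all genes rose and 17.4% fell. In the wild type tongue 16 rose and 1 fell, where 32.1% of all genes rose and 14.5% fell. The median was 0.59 in the biallelic tongue, beside 0.17 over all genes, and 0.52 in the wild type tongue, beside 0.20. Among those that rose were the death receptor gene Fas (2.04 in the biallelic and 2.14 in the wild type tongue) and the stress gene Ddit4 (1.55 in the biallelic and 1.48 in the wild type tongue). None of this list was called between the genotypes in any table.

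Of the 14 regulators of p53, 4 rose and 7 fell between E13.5 and P0 in the biallelic and 3 rose and 7 fell in the wild type tongue, where over all genes 38.5% rose and 38.9% fell in the biallelic and 36.3% rose and 41.5% fell in the wild type tongue. The checkpoint kinase gene Chek1 fell by 2.67 in the biallelic and 2.90 in the wild type tongue on the log2 scale, and the kinase gene Hipk2 rose by 1.44 in the biallelic and 1.39 in the wild type tongue. After P0, 1 rose and 1 fell in the biallelic and 6 rose and 1 fell in the wild type tongue, where over all genes 30.1% rose and 17.4% fell in the biallelic and 32.1% rose and 14.5% fell in the wild type tongue. Of 3 other tested inhibitors of cyclin-dependent kinases, 2 fell in each genotype in the first step, and then 2 in the biallelic and 3 in the wild type tongue. Cdkn1c (p57), itself an imprinted gene, fell after P0 by 4.11 in the biallelic and 4.22 in the wild type tongue.

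Among the 10 other tested BCL-2 family genes, 2 rose and 3 fell between E13.5 and P0 in the biallelic and 1 rose and 5 fell in the wild type tongue. The pro-apoptotic Bid fell by 1.71 in the biallelic and 1.51 in the wild type tongue, and the anti-apoptotic Bcl2 rose by 1.68 in the biallelic and 1.03 in the wild type tongue. After P0, 4 rose and 1 fell in the biallelic and 3 rose and 0 fell in the wild type tongue, among them the anti-apoptotic Bcl2l1 (0.88 in the biallelic and 1.06 in the wild type tongue). Of 9 tested genes of the apoptosome and caspases, 2 rose and 4 fell in the first step in the biallelic and 2 rose and 6 fell in the wild type tongue, and 3 rose and 1 fell after P0 in both. The shares over all genes given above for each step apply to these counts too, and with 10 and 9 genes a list the counts are described and nothing particular to the lists is read from them. None of these 4 lists had a gene called between the genotypes.

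The genes whose log2 RPM most resembled that of Cdkn1a over the 18 tongue libraries were Macf1 (Pearson r = 0.978), Serpinb1a (0.975), Lrrfip1 (0.974), Cpa6 (0.974) and Myo18b (0.973), of 12243 genes. For Trp53 they were Zc3hav1l (0.979), Nras (0.977), 4632419I22Rik (0.972), Lpcat1 (0.971) and Kdelr2 (0.971). For Bmf they were Grasp (0.974), Prom1 (0.969), Scube3 (0.963), Vps37d (0.951) and Glyr1 (0.950). The 18 libraries fall into 6 groups by stage and genotype, so these coefficients are a description of those groups.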

How the data were processed

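RNA-seq was made from whole tongues (total RNA depleted of ribosomal RNA, stranded) and from sorted E18.5 cells (polyA RNA, SMART-seq2). Reads were trimmed with Trim Galore 0.4.2 and aligned to GRCm38 with TopHat2 2.1.0 or HISAT2, per the submitters' processing notes. Which counter was used, and with which strand setting, is not stated. The authors deposited log2 RPM per gene in 4 tables, which hold 29 columns for 33 labelled samples, because 4 biallelic sorted cell animals have a pair of labelled libraries and a single column. Values below 1000 reads were whole reads within 0.05 for 100% of values, with a gene without reads listed at 0.9 reads. A floor of 3 reads corresponds to 0.0325 to 0.0814 RPM for tongue libraries and 0.191 to 1.02 RPM for sorted cell libraries, and such floors cover counting error only.

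Genotypes were compared within each table, and stages in a fit of 6 group means over all 18 tongue libraries (genes with a mean of at least 1 RPM on the log scale), with limma 3.58.1 (R 4.3.3, mean-variance trend) across all genes, Benjamini-Hochberg adjusted over all of them at a threshold of 0.05. In every table each library was scaled to its own read total, as recovered from the values, so libraries of the 3 tongue tables share a scale. The procedure was tested on simulated data. Tongue libraries are labelled biological replicates without named animals, so p-values measure the spread between libraries. The 10 genes, Plagl1, the lists and the alternatives were chosen with earlier results of these data known. The genotype difference averaged over the tongue stages had been added in earlier work after its results were seen. From each list up to 4 called genes of largest change were eligible to be named, and for likeness the 5 genes of highest Pearson r. Alternatives were log2(RPM + 1), median centring, scaling to the listed genes, other filters, voom on the recovered reads, no trend, a replicate block and leaving out each library.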

Additional observations from a re-analysis of the deposited data

Results flagged for a closer look

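Of 22 groups of sorted cell values tested for a sample far from the others, 1 was flagged, where chance flags about 1 in 20. Bmf in biallelic animal 1 had a log2 RPM of -1.35 (0.393 RPM from 6 reads), against 1.83 RPM or more in the other 5 biallelic animals. In the wild type animals 2 of 5 had 0 reads of Bmf.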

How the results depend on the processing

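No member was called between the genotypes in any of 142 alternative fits. Between P0 and P20 in the biallelic tongue, the count of members called was 3 to 5 when 1 library was left out. With median centring, changes between P0 and P20 turned to -0.039 (biallelic) and -0.053 (wild type) for Bax, -0.028 for Ccng1 and -0.15 for Mdm2 (both wild type), and the sorted cell differences to 0.10 for Cdkn1a and 0.062 for Cdkn1b. With scaling to the listed genes, the same changes were -0.025 (biallelic) and -0.018 (wild type) for Bax and -0.12 (wild type) for Mdm2. Without sorted wild type animals 7, 8 and 9, values of opposite sign were -0.23 for Apaf1, 0.26 for Bax, 0.32 for Bbc3, 0.29 for Cdkn1a and 0.48 for Cdkn1b. The cause of these reversals was not tested. Leaving out 1 library gave ranges across 0 for Bbc3 (-0.21 to 0.13) and Ccng1 (-0.033 to 0.38) between P0 and P20 in wild type, Mdm2 (-0.13 to 0.034) in biallelic, the genotype difference of Cdkn1a at P20 (-0.17 to 0.28) and averaged (-0.12 to 0.046), and Cdkn1b in the sorted cells (-0.40 to 0.0089).

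With the replicate number as a block, 0 members were called in the genotype comparisons, and Plagl1 at P0 lost its call (limma adjusted p = 0.509). Same-numbered libraries did not deviate together in all pairs (correlations of 0.159, 0.042 and 0.137 at E13.5, -0.343, -0.486 and 0.362 at P0, and -0.314, -0.288 and -0.647 at P20), so the numbers are not taken as pairs. No block was fitted for the sorted cells or for stages within a genotype. Pmaip1 in the tongue and Bmf in the sorted cells are limited by depth, and no fold of Bmf is compared in the sorted cells, where 2 animals had 0 reads.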
